A study of Saccharomyces cerevisiae with 8 samples.

Results

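The genes described here encode the cytosolic ribosomal proteins of the yeast Saccharomyces cerevisiae. They were taken as all genes named RPL or RPS with a number and an optional A or B, leaving out the ubiquitin fusions RPL40A, RPL40B and RPS31. Of 5444 genes measured, 119 were members, 68 of the large 60S subunit and 51 of the small 40S subunit, from 72 protein families. Expression was measured on 8 Affymetrix GeneChip Yeast Genome 2.0 arrays, with 2 biological replicates in each of 4 groups. All groups were the haploid strain CEN.PK113-11C with a p413 TEF plasmid, grown in shake flasks at 30 °C. In the control strain the plasmid was empty. In the L-UBB+1 strain it carried human UBB+1, a frameshifted ubiquitin that accumulates in Alzheimer's disease, expressed constitutively at a low level. Each strain was sampled in exponential phase (EX) and in stationary phase on day 6 (D6).

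A ribosome holds 1 copy of nearly every ribosomal protein, and making these proteins in matched amounts takes a large share of a growing cell's transcription. Most of the yeast genes survive as a pair of paralogues, A and B, from an ancient duplication of the whole genome, and the paralogues encode identical or nearly identical proteins. Their promoters are bound by Rap1, Fhl1 and Ifh1. Nutrient signalling through TORC1 and protein kinase A is known to raise their transcription in growth, and starvation and stress to lower it. The comparisons ask how far these genes differed between the strains, whether both subunits did, and whether the A and B paralogues moved alike.

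Levels were log2 values per probe set, so that 1 unit is a 2-fold change. Calls were made with limma where the Benjamini-Hochberg adjusted p over all 5444 genes was under 0.001 and the size of the log2 fold change was 1 or more. Of the members, 91 were measured by a probe set of their own and 28 by one that can also hybridize to related transcripts (23 _s_at and 5 _x_at sets). A further 9 paralogues that fit the naming rule, RPL7B and RPL41B among them, had no probe set under their own name and were not analysed here, and the partner of each was measured by an _s_at set. Array medians over all probe sets lay between 8.34 and 8.41, so levels are relative to the other transcripts of the same array. Fewer cells that hold a transcript and less of it per cell cannot be told apart in such cultures.

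Some markers went against the labels. The median level of 10 genes induced in stationary phase was 8.41 and 8.25 on the control EX arrays, 7.54 and 7.80 on the control D6 arrays, and 11.2 to 11.9 on the 4 arrays of the L-UBB+1 strain. Of these 10 genes, 5 were called higher in the L-UBB+1 strain at each phase (17.2% of all genes at EX and 17.9% at D6), none was called lower at EX and 1, SNO1, was called lower at D6. The 5 were SPG1, SPG4, SSA3, GRE1 and SIP18, while HSP26 was at 1.45, HSP12 at 0.20, SNZ1 at 0.16, CTT1 at −0.70 and SNO1 at −1.06 at EX without a call. Of 8 genes used in growth on glucose, 7 were called lower in the L-UBB+1 strain at each phase (17.1% and 18.5% of all genes). Part of these markers of growth state thus differed between the strains, none was called between the phases, and their part in the results was not tested. L-UBB+1 EX replicate 1 and D6 replicate 2 differed by an SD over genes of 0.086, and EX replicate 2 and D6 replicate 1 by 0.143, while replicates differed by 0.202 to 0.287. The methods give mating type alpha, but the alpha-cell genes MF(ALPHA)1, MF(ALPHA)2 and STE3 lay between 5.90 and 7.50 on all arrays and the a-cell genes MFA1, MFA2 and STE2 between 7.55 and 10.7. Of the a-cell genes, MFA2 and STE2 were called lower in the L-UBB+1 strain at both phases, at −2.34 and −2.50 at EX. MFA1 was at 0.31 without a call, and no alpha-cell gene was called. A probe set for human UBB+1 was not analysed here, so the transgene could not be checked.

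Ribosomal protein transcripts were lower in the L-UBB+1 strain at both phases. At EX 59 of 119 members were called lower (background over all genes 17.1%) and 2 higher (background 17.2%). At D6 58 were called lower (background 18.5%) and 0 higher (background 17.9%). The median log2 fold change of the members was −0.99 at EX and −0.99 at D6, beside 0.0032 and −0.0075 over all genes. The phases were fitted together, with 1 estimate of each gene's error for both, and gave 56 members lower at both phases, 3 at EX alone, 2 at D6 alone and 58 at neither. Since L-UBB+1 arrays of EX and D6 lay closer to each other than replicates did, calls at both phases are not 2 independent results.

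With any size of change allowed, 86 members passed the p threshold as lower at EX (background 22.8%) and 91 at D6 (background 24.3%), and 2 as higher at each phase (background 23.3% and 24.4%). At the looser adjusted p of 0.05, 108 were lower at EX (background 37.5%) and 110 at D6 (background 38.4%). Both L-UBB+1 arrays lay below both control arrays in 114 members at EX (background 44.2%) and in 114 at D6 (background 44.1%). They lay above in 4 members at each phase (background 44.5% and 43.4%), which were RPL10, RPS14B, RPS27A and RPS30A. In a setting chosen after seeing the data, L-UBB+1 EX replicate 2 and D6 replicate 1 were both left out, and 48 members were called lower at EX and 49 at D6. Without the other 2 arrays of that strain the counts were 56 and 60.

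**Figure D1:**
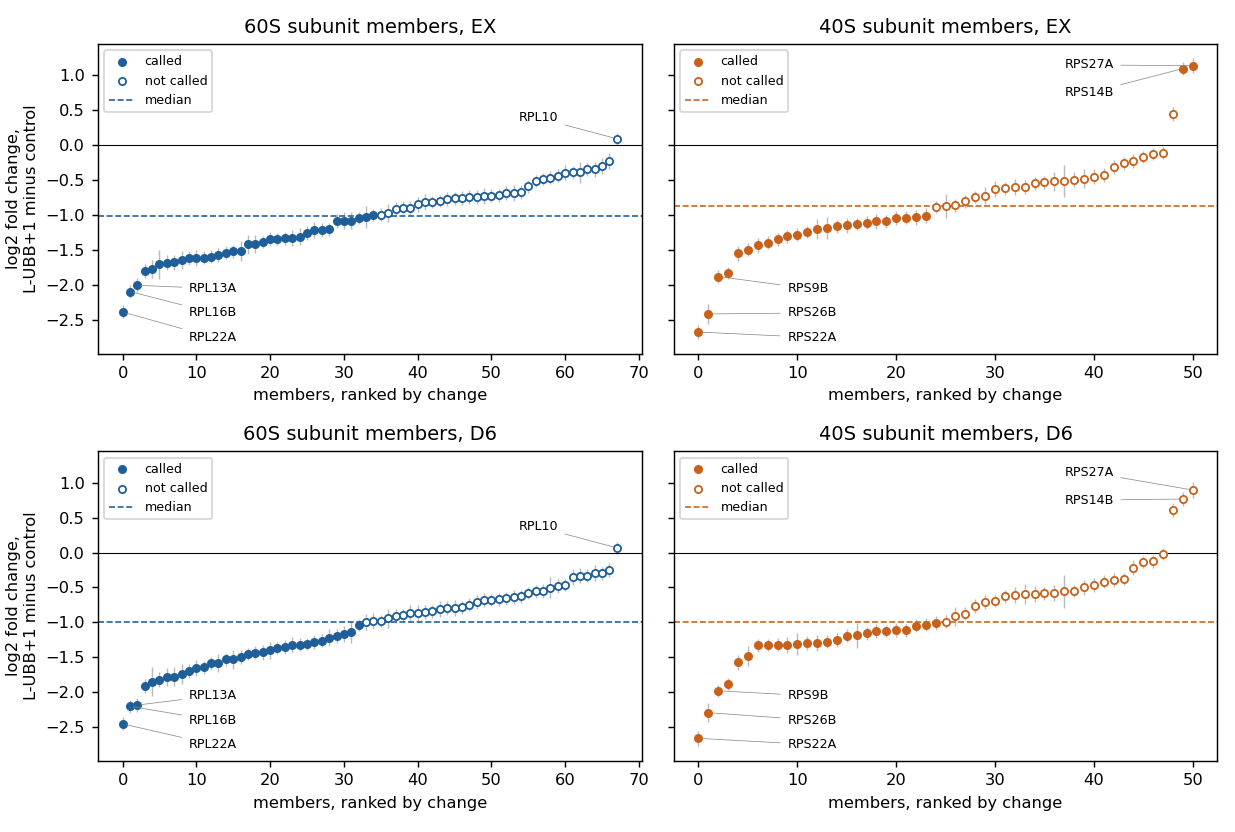
Log2 fold change (y axis, L-UBB+1 minus control) of each of the 68 members of the 60S and 51 of the 40S subunit at EX and D6, ranked along the x axis within each panel; bars are standard errors of the limma fit, filled points are called, open points are not, and dashed lines are medians. The medians lie between −1.01 and −0.87, and RPS27A and RPS14B stand above 0 in the 40S panels.

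The falls differed widely in size. RPS22A, a protein of the body of the 40S subunit, had the largest fall. Its levels were 11.14 and 11.05 on the control EX arrays and 8.49 and 8.35 on the L-UBB+1 EX arrays, and 11.30 and 11.22 against 8.69 and 8.51 at D6. The arrays of the strains lay far apart at both phases. The transcript was 6.38-fold lower at EX (−2.67 on the log2 scale, standard error 0.11, limma adjusted p 1.68e-06) and at −2.66 at D6.

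RPS26B encodes Rps26, which sits where mRNA leaves the 40S subunit. It read 11.31 and 11.03 against 8.80 and 8.71 at EX, and 11.38 and 11.17 against 9.09 and 8.87 at D6. It was 5.33-fold lower at EX (−2.41 on the log2 scale, standard error 0.14, limma adjusted p 5.33e-06), with no overlap between the strains. RPS9B, another protein of the body of the 40S subunit, read 11.15 and 11.21 against 9.30 and 9.30 at EX and was 3.68-fold lower.

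In the 60S subunit the largest fall was that of RPL22A. Its levels were 11.22 and 11.17 against 8.82 and 8.80 at EX, and 11.48 and 11.43 against 9.08 and 8.92 at D6. Replicates differed by far less than the strains did, and the transcript was 5.23-fold lower at EX (−2.39 on the log2 scale, standard error 0.09, limma adjusted p 1.68e-06). RPL16B read 11.77 and 11.73 against 9.64 and 9.67 at EX, a 4.27-fold fall. RPL13A read 10.66 and 10.57 against 8.67 and 8.55, a 4.01-fold fall. These 6 members also had the 6 largest falls at D6, from −2.66 for RPS22A to −1.98 for RPS9B.

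With the fold threshold 2 members were called higher, both at EX and both of the 40S subunit, and both also passed the p threshold at D6. RPS27A, which encodes a zinc finger protein, read 10.59 and 10.84 in the control strain and 11.90 and 11.81 in the L-UBB+1 strain at EX, and 11.07 and 11.01 against 11.89 and 11.98 at D6. It was higher at EX by 2.20-fold (1.14 on the log2 scale, standard error 0.11, limma adjusted p 5.45e-05). At D6 its value of 0.89 passed the p threshold (adjusted p 0.000187) and missed the fold. Every L-UBB+1 array lay above every control array. The EX call was lost in both settings that left out 2 L-UBB+1 arrays, with adjusted p of 0.00113 and 0.00154.

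RPS14B encodes Rps14, a protein of the 40S platform that is known to bind the unspliced RPS14B transcript and block its splicing. It read 9.93 and 9.98 against 11.11 and 10.99 at EX, and 10.28 and 10.35 against 11.02 and 11.15 at D6. It was higher at EX by 2.14-fold (1.10 on the log2 scale, standard error 0.10, limma adjusted p 3.55e-05), and its D6 value of 0.77 (adjusted p 0.000222) missed the fold. Here too the strains did not overlap. RPS30A, on a probe set shared with RPS30B, had 0.45 at EX (adjusted p 0.00584) and 0.61 at D6 (adjusted p 0.00113) and was called at neither.

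**Figure D2:**
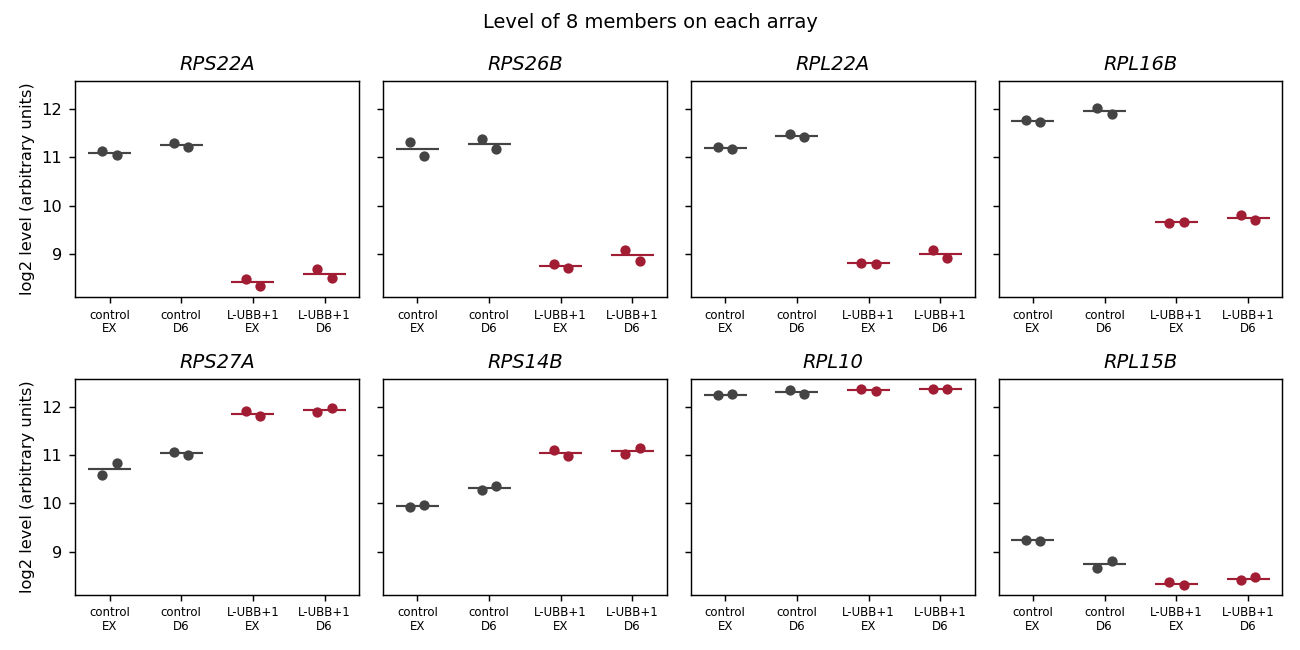
Log2 level (y axis, the same in all panels) of 8 members in the 4 groups of strain and phase (x axis); points are single arrays and horizontal lines group means of 2 arrays. RPS22A, RPS26B, RPL22A and RPL16B lie lower in the L-UBB+1 strain, RPS27A and RPS14B lie higher, RPL10 stays between 12.2 and 12.4, and in RPL15B the control D6 arrays lie below the control EX arrays.

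RPL10 stood apart in the 60S subunit. Its protein joins late, in the cytoplasm, at a step that makes the large subunit ready for translation. The levels were 12.23 and 12.26 in the control strain and 12.36 and 12.32 in the L-UBB+1 strain at EX, and 12.34 and 12.27 against 12.36 and 12.37 at D6. The difference of 0.09 at EX had a standard error of 0.08 (limma adjusted p 0.344), and that at D6 was 0.07 (adjusted p 0.491). The highest value of any probe set was 12.8 to 13.1 on these arrays, and whether the range of the probe set bears on this small difference was not tested.

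Members with known places in the 60S subunit covered a range of changes. RPL5, RPL11A and RPL11B, whose proteins bring the 5S rRNA into the subunit, were at −1.20, −1.58 and −1.35 at EX, and all 3 were called lower at both phases (RPL11B on a shared set). Of 11 members at the exit of the tunnel for the nascent chain, 5 were called lower at EX and 4 at D6, with medians of −0.92 and −0.98. Over all genes 17.1% and 18.5% were called lower, and over all members 49.6% and 48.7%. RPL39, which lines this tunnel, was called at −1.67. RPL25, the docking site for factors that meet the nascent chain, was not called at −0.77.

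Near the centre where peptide bonds form, RPL3 was at −0.81 and RPL28 at −0.99 at EX, and neither was called. RPL28 lay at the fold threshold, and with the arrays centred on other genes it was called at −1.04. RPL8A, RPL8B and RPL7A were called lower at −1.38, −1.80 and −1.34 at EX, RPL8A and RPL7A on shared sets. RPL41A, a very small protein between the subunits, was at −0.44 on a set shared with RPL41B and was not called.

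Members at the mRNA path of the 40S subunit moved in both directions. RPS3, at the entry, was called lower at −1.13 at EX and −1.12 at D6. At the exit, of RPS14, RPS26 and RPS28 with both paralogues, RPS26B was called lower and RPS14B higher at EX. RPS28A was at −0.72 at EX and −0.59 at D6 and RPS28B at −0.52 and −0.91, with no call. The product of RPS28B is known to promote the decay of its own mRNA.

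Members of both subunits were called lower. At EX they were 35 of 68 in the 60S subunit and 24 of 51 in the 40S subunit (background 17.1%), with medians of −1.01 and −0.87. At D6 they were 33 and 25 (background 18.5%), with medians of −0.99 and −0.99. The subunit medians differed between replicate arrays by an SD of 0.079 for 60S and 0.036 for 40S. The order at EX depended on the probe sets, since with shared sets left out the medians were −1.03 and −1.09. The difference between the subunits was not tested. Without the fold threshold, 55 members of the 60S and 31 of the 40S subunit were lower at EX (background 22.8%).

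The 16 members that are the only gene of their family had a median of −1.04 at EX, and 8 of them were called lower (background 17.1%). Over the 47 pairs with both paralogues measured, the EX median was −1.04 for the A genes and −0.90 for the B genes. At D6 these medians were −1.01 and −0.99. Across the 119 members, the strain difference at EX had a Pearson correlation of −0.03 with the level on the control D6 arrays. With the level on the L-UBB+1 D6 arrays, which lay close to the L-UBB+1 EX arrays that enter this difference, it was 0.71. That is a description over genes of the same arrays, and genes are not independent replicates.

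Other genes of the ribosome and its supply are given by lists chosen with earlier results known. Over all genes 17.1% were called lower at EX and 18.5% at D6, and 17.2% and 17.9% higher. Of 8 stalk proteins and ubiquitin fusions, 4 were called lower at each phase, all 4 of them stalk proteins. The stalk recruits translation factors to the 60S subunit, and RPP2A was at −1.71, RPP0 at −1.29 and RPP2B at −1.28 at EX. Of 15 genes for ribosome preservation and rescue, 4 were called lower at EX and 3 at D6, which is near the shares over all genes. Those called at both phases were ASC1, STM1 and RLI1. ASC1, a scaffold on the head of the 40S subunit, was at −1.64, STM1, which preserves idle ribosomes, at −1.30 and RLI1, which recycles ribosomes after termination, at −1.23 at EX.

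Of 19 transcription regulators of ribosomal protein genes, 10 were called higher in the L-UBB+1 strain at EX, 5 were at D6 (again 17.2% and 17.9% of all genes), and none was called lower. The list holds both activators and repressors. TOD6, a repressor of ribosome synthesis genes, was at 2.34 and ESA1, a histone acetyltransferase found at ribosomal protein promoters, at 2.03, and the activator FHL1 was 4.01-fold higher at EX. Of 19 chaperones and importers, 5 were called lower at EX and 7 at D6 (17.1% and 18.5% of all genes), with medians of −0.22 and −0.97. The nascent chain-binding proteins EGD2 and EGD1 were at −2.69 and −2.11 at EX, and ZUO1, a J-protein of the ribosome, at −1.65.

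Paralogues did not always move alike. For each of the 47 pairs, 26 of the 60S and 21 of the 40S subunit, the A minus B difference in log2 level was compared between the strains, which cancels the fixed offset between the probe sets. At EX 6 pairs were called (34.1% of all genes and pairs tested together) and at D6 9 (36.2%), and the 6 were among the 9. Nearly all of this background is made up of single genes and their strain differences. Without a fold threshold the counts were 14 at EX (46%) and 16 at D6 (48.6%), and at an adjusted p of 0.05 they were 27 (74.5%) and 27 (75.9%).

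The size of the A minus B change had a median of 0.43 at EX and 0.40 at D6. Its sign was mixed, with a median of −0.06 at EX. Both paralogues were called lower at EX in 15 pairs, 1 of them in 18 and neither in 14 (17.1% of all genes were called lower). The medians of −1.04 for A genes and −0.90 for B genes lay near the fold threshold. A pair with 1 paralogue called thus need not differ in change, and A minus B was called in 6 pairs at EX. Across the 47 pairs the changes of A and B at EX had a Pearson correlation of 0.41, and of 0.34 over 46 pairs with gene-specific probe sets, as a description over genes of the same arrays.

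**Figure D3:**
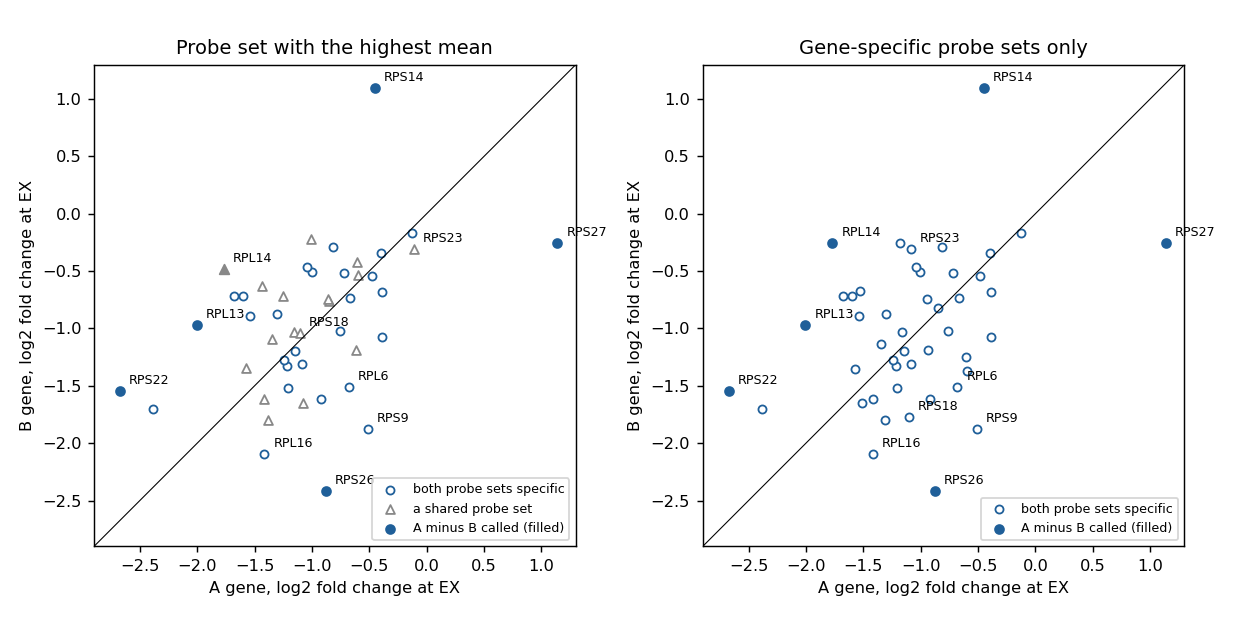
Log2 fold change at EX of the A gene (x axis) against the B gene (y axis), for 47 pairs on the probe set with the highest mean (left) and 46 pairs on gene-specific probe sets (right); the line marks equal change, filled symbols are called pairs and triangles are pairs with a shared probe set. RPS14, RPL14, RPS22 and RPL13 lie above the line and RPS27 and RPS26 below it in both panels.

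In 4 of the 6 pairs called at EX, A fell further or B rose more. RPS14 had the largest difference. Its A minus B value was 1.86 and 1.84 on the control EX arrays and 0.29 and 0.32 on the L-UBB+1 EX arrays, and 1.62 and 1.49 against 0.29 and 0.36 at D6. The change was −1.55 at EX (standard error 0.09, limma adjusted p 6.08e-06) and −1.23 at D6. RPS14B rose at EX while RPS14A was at −0.45 and was not called.

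RPL14 had A minus B values of −0.42 and −0.57 against −1.66 and −1.91 at EX, a change of −1.29 with its B gene on a shared set and of −1.52 on the specific set. RPL14A was called lower at −1.77. RPS22 went from 0.58 and 0.60 to −0.55 and −0.53, a change of −1.13, although RPS22B was called lower too, at −1.55. RPL13 went from −0.97 and −0.93 to −2.04 and −1.93, a change of −1.04 (adjusted p 0.000104). These 3 pairs kept apart on all arrays of the strains, but the EX call of RPL14 was lost without control EX replicate 1, and that of RPL13 without either control EX array or without L-UBB+1 EX replicate 1.

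In the other 2 pairs B fell further or A rose more. RPS26 had A minus B values of 0.32 and 0.56 against 1.90 and 2.05 at EX, and 0.31 and 0.42 against 1.85 and 2.07 at D6. The change was 1.54 at EX (standard error 0.13, limma adjusted p 2.67e-05), with RPS26A at −0.88 and not called. RPS27 went from −1.33 and −0.94 to 0.30 and 0.22 at EX, a change of 1.40 (standard error 0.14, limma adjusted p 6.11e-05), with RPS27B at −0.26. In both pairs every L-UBB+1 array lay above every control array. The EX call of RPS27 was lost in both settings that left out 2 L-UBB+1 arrays (adjusted p 0.00146 and 0.00182).

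At D6 RPS9, RPL15 and RPL9 were called as well. RPS9 read −1.58 and −1.61 in the control strain and −0.35 and 0.00 in the L-UBB+1 strain, a change of 1.42 (adjusted p 0.000874), and its EX change of 1.37 had an adjusted p of 0.00113. RPS9A had the widest error of all members, a standard error of 0.23, with 9.33 and 10.07 on the control EX arrays. RPL15 changed by −1.14 at D6 and −0.64 at EX, and RPL9 by −1.02 and −0.96. The D6 call of RPL15 was lost in both settings that left out 2 L-UBB+1 arrays (adjusted p 0.00136 and 0.00143). RPL15A read 11.43 and 11.44 against 9.94 and 9.86 at EX, and was called lower at −1.54.

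The counts of pairs rested on single arrays. At D6 the count was 5 without control D6 replicate 1 and 5 without L-UBB+1 D6 replicate 2, and at EX it was 4 without control EX replicate 1. The D6 call of RPS9 was lost without any 1 of 6 arrays, those of D6 and of L-UBB+1 EX, and that of RPS27 without any 1 of the 4 D6 arrays. RPS22 lost its D6 call without L-UBB+1 D6 replicate 2, at −0.97, and RPL14 without control D6 replicate 1.

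**Figure D4:**
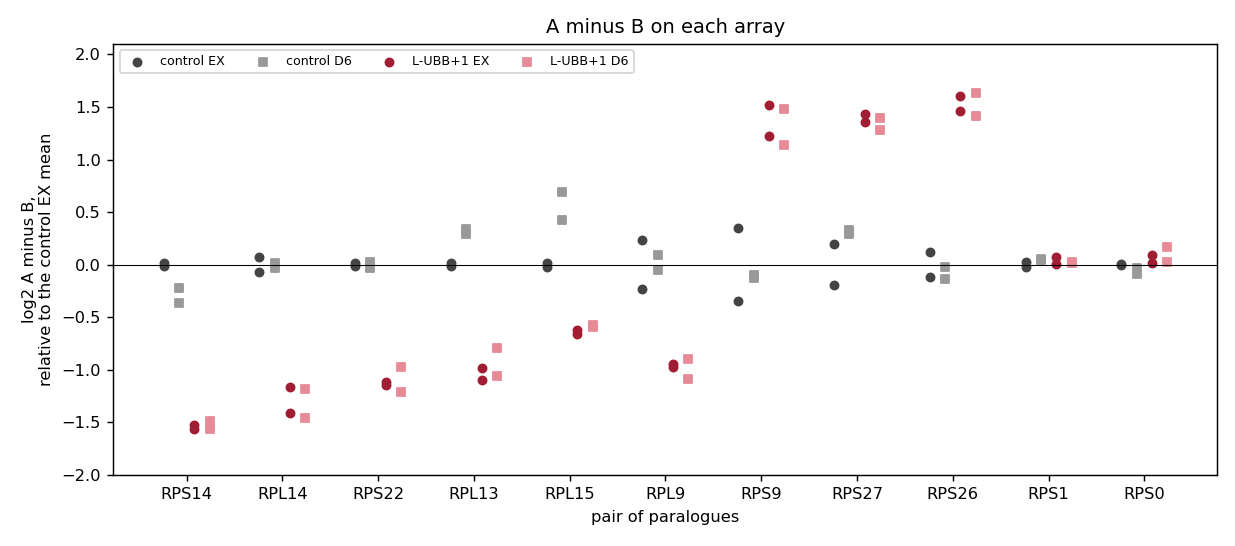
A minus B log2 difference (y axis) on each array, relative to the mean of the control EX arrays, for the 9 pairs called at D6 and for RPS1 and RPS0 (x axis); circles are EX arrays and squares D6 arrays, grey for the control and red for the L-UBB+1 strain. In the called pairs the L-UBB+1 arrays lie apart from the control arrays of the same phase, and in RPS1 and RPS0 they lie close to them.

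Other pairs kept nearly in step. RPS1A and RPS1B were called lower at −1.24 and −1.28 at EX, and their A minus B change was 0.04 (standard error 0.08, adjusted p 0.709). RPS0A and RPS0B were called lower at −1.15 and −1.20, with a change of 0.05 (standard error 0.09, adjusted p 0.614). RPL19 and RPS25 also had small changes of A minus B at EX, −0.05 and 0.04, with none of their 4 genes called. At D6 that of RPS25 was 0.36.

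RPL22A and RPL22B were both called lower at both phases. Rpl22 is known to bind the RPL22B intron and hold back its splicing. RPL22B read 10.03 and 10.26 against 8.46 and 8.14 at D6, a change of −1.85 with a standard error of 0.21, and was at −1.70 at EX, where its control arrays read 9.48 and 10.07. Its EX call was lost without either L-UBB+1 EX array and its D6 call without either control D6 array. The A minus B change of −0.68 at EX had a standard error of 0.21 (adjusted p 0.0185) and was not called.

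Probe sets of the same gene could differ. In 19 members both a shared set, with the highest mean, and a specific set were present, and their EX values lay up to 0.97 apart. RPS23A was at −0.11 on the shared set and −1.08 on its own, and RPS18B at −1.04 and −1.77. The specific set gave the lower value at EX in 16 of the 19 and the higher one in 3, among them RPL14B at −0.25 against −0.48.

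The A minus B change at EX turned direction with the specific sets in both families. It went from 0.20 to −0.77 in RPS23 and from −0.06 to 0.67 in RPS18. Neither reached the fold threshold. On specific sets the same 6 of 46 pairs were called at EX (34.2%) and the same 9 at D6 (36.3%), and the median size of the change was 0.51 and 0.43.

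**Figure D5:**
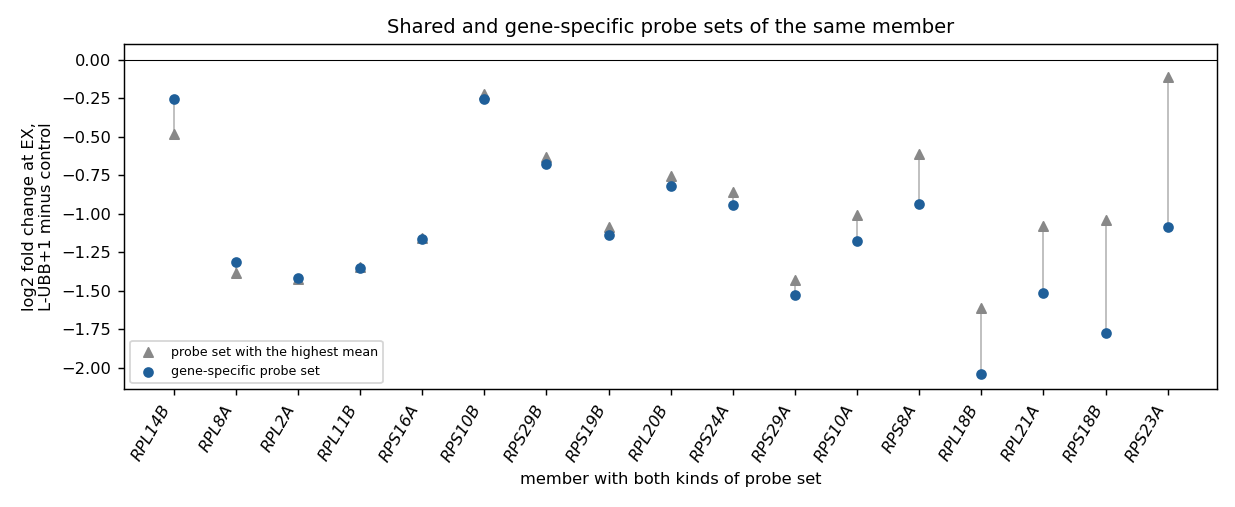
Log2 fold change at EX (y axis) of 17 of these members (x axis) on the probe set with the highest mean, which can also hybridize to related transcripts (triangles), and on a gene-specific one (circles), ordered by the difference. The values lie furthest apart, by 0.97, in RPS23A at the right. Of the 19 members with both kinds of set, those not shown differed by up to 0.84.

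Between the phases no member was called in either strain (background 0% in both). In the control strain the median member was 0.12 higher at D6, beside 0.00070 over all genes. Both D6 arrays lay above both EX arrays in 77 members (background 32%) and below them in 1 (background 33.5%). At an unadjusted p under 0.05, 18 members were higher (background 13.5%) and 1 was lower (background 13.7%).

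The lower member was RPL15B. It read 9.25 and 9.22 on the control EX arrays and 8.67 and 8.81 on the control D6 arrays, a difference of −0.50 (standard error 0.09, limma adjusted p 0.0435). In the L-UBB+1 strain it read 8.37 and 8.32 at EX and 8.42 and 8.47 at D6. RPS24B, RPS14B and RPL13A, with the next smallest p in the control strain, were at 0.36, 0.36 and 0.34 with adjusted p between 0.0644 and 0.089. No pair was called there (0%), and 7 of 47 had an unadjusted p under 0.05 (27.2%). The A minus B value of RPL15 went from 2.18 and 2.22 to 2.89 and 2.63, a change of 0.56 (adjusted p 0.0455).

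In the L-UBB+1 strain all 119 members had a D6 value above that of EX, by 0.0039 to 0.24, with a median of 0.09. The arrays did not overlap in 60 members (background 9.99%), and none was lower in this way (background 6.7%). At an unadjusted p under 0.05, 2 members were higher (background 0.11%). Over the members, L-UBB+1 EX replicate 1 and D6 replicate 2 differed by an SD of 0.050, while replicates of that strain differed by 0.098 and 0.133.

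No member was called for a strain effect that differed between EX and D6 (background 0%). At an unadjusted p under 0.05, 2 members were higher (background 7.42%) and 1 was lower (background 8.52%). RPL15B had the smallest p, with a strain effect of −0.90 at EX and −0.30 at D6 and a difference of 0.60 (limma adjusted p 0.275). RPS14B, RPL39 and RPS24B followed, with adjusted p between 0.303 and 0.327.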

How the data were processed

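The authors made the deposited log2 values per probe set from 8 arrays in R (version 3.2.3 in the submitters' processing notes) with the PIANO package, by a normalization and probe summarization not given in the sources used here. They were used as deposited. Of 5705 probe sets, 5489 were annotated with 1 gene (12 symbols updated through gene ID), and 216 without a gene were left out. Each gene was represented by its probe set with the highest mean.

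With limma 3.58.1 (R 4.3.3), group means were estimated for all 5444 genes (4 residual degrees of freedom), and again with 47 A minus B differences added (5491 in all), with Benjamini-Hochberg adjustment. The procedure was tested on simulated data. With 2 arrays per group, precision is limited. Alternatives covered normalization, dim genes, probe sets, arrays in the fit, the prior, thresholds, a replicate block, the methods' t-test and each array left out.

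Members and lists were chosen with earlier results of these data known. By rule, the text names the 6 largest falls and up to 4 rises, the 6 largest and 4 smallest A minus B changes, the 4 smallest p for phase and for the difference, a fixed set of functions and 3 genes per list. RPS30A, RPL9, RPS18 and RPS23 were named after their values were seen. Some members are counted but not reported singly here.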

Additional observations from a re-analysis of the deposited data

Results flagged for a closer look

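RPL15B was lower at D6 than at EX in the control strain, by −0.50 on the log2 scale, and higher in the L-UBB+1 strain, by 0.10. The arrays did not overlap in either strain. Over all genes 33.5% were lower in this way in the control strain, and 9.99% higher in the L-UBB+1 strain. The difference of the strain effect was 0.60 (adjusted p 0.275 from limma).

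In 3 of 47 pairs the A minus B value differed between the strains in opposite directions at EX and D6, again with no overlap of arrays. Lack of overlap was common over all genes, at 44.2% lower and 44.5% higher at EX and 44.1% and 43.4% at D6. The share of all genes with opposite directions was not computed, so 3 pairs cannot be set against it. The strain effect went from 0.07 at EX to −0.15 at D6 in RPL36, a difference of −0.22 (adjusted p 0.394). It went from −0.12 to 0.16 in RPS24, a difference of 0.27 (adjusted p 0.348), and from −0.20 to 0.32 in RPS28, a difference of 0.52 (adjusted p 0.311). RPS24A was on a shared probe set, and on its specific set the D6 value of RPS24 was 0.09 with overlapping arrays, so the lack of overlap was lost there. None of the 4 differences passed limma's test with adjustment.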

How the results depend on the processing

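For single members and pairs, 1844 values were computed under other settings. Of these 1729 kept their side of the threshold, 92 lost a call and 23 gained one. Among values called in the main fit or in the other setting, 0 reversed direction. Values called in neither could change sign and still count among the 1729. No member was called between phases or for the difference in any setting run. The methods' t-test and the fit on the compared groups alone were not run for that difference. The methods give a t-test for differences between strains in general, while the paper's array calls used PIANO and adjusted p. Held to the same thresholds, the t-test called 0 members and 0 pairs at either phase. With 2 arrays per group it has little power at an adjusted p under 0.001, so these counts of 0 decide nothing. At its own unadjusted threshold of 0.05 it gave 106 members lower and 3 higher at EX (31.8% of all genes lower) and 100 and 3 at D6 (30.7%). After Benjamini-Hochberg it gave 98 and 2 at EX (26.6% of all genes lower) and 89 and 3 at D6 (22.8%). With no fold threshold, 91 members were lower and 2 higher at D6, and 14 pairs were called at EX and 16 at D6. The 40S median at EX was −0.81 with quantile normalization and −0.92 with arrays centred on other genes. It was −0.92 at EX and −1.03 at D6 with the mean of all probe sets. With shared sets left out it was −1.09 and −1.12, and the 60S median at D6 was −1.08.

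With 1 array left out, 50 to 59 members were lower at EX and 50 to 62 at D6, 2 were higher at EX and 0 at D6, and 4 to 7 pairs were called at EX and 5 to 9 at D6. The 60S median was −1.08 to −0.96 at EX and −1.08 to −0.93 at D6, and the 40S median −0.90 to −0.83 and −1.08 to −0.91. A lone array was assumed to vary like the other groups. Settings chosen after seeing the data left out 2 arrays. Without L-UBB+1 EX replicate 2 and D6 replicate 1, 1 member was higher at EX, 5 pairs were called at D6, and the 40S medians were −0.83 and −0.91. Without EX replicate 1 and D6 replicate 2, 1 member was higher at EX, 4 pairs were called at D6, and the D6 medians were −1.08 for 60S and −1.03 for 40S.

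Equal replicate numbers did not mark matched samples (correlations of replicate deviations from −0.85 to 0.36). The −0.85 was between L-UBB+1 EX and L-UBB+1 D6, where arrays with crossed numbers lay closer than replicates did. The L-UBB+1 arrays of the 2 phases thus cannot be taken as independent. With a replicate block 58 members were lower and 2 higher at EX and 56 lower at D6, with 6 and 8 pairs, RPS9 not being called at D6. With crossed numbers, chosen after seeing the data, the counts were 59 and 58 members and 7 and 9 pairs.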
